A study of Gossypium hirsutum with 24 samples.

Results

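C2H2 zinc finger proteins are transcription factors in which paired cysteine and histidine residues hold a zinc ion, so that the finger can grip DNA. The 36 Affymetrix probe sets of this family that the study listed among its herbivory-regulated transcription factors were followed here in leaves of upland cotton (Gossypium hirsutum cv. CCRI12), with and without feeding by larvae of the cotton bollworm (CBW, Helicoverpa armigera). Members were taken by the family name C2H2 in the study's supplementary list of transcription factors, and none of the 36 stood in its list of hormone genes. They were 36 of the 15615 probe sets that had a value on any array, and 509 other transcription factor probe sets of the list served as a second background. The study matched them to 28 gene models of G. raimondii, a diploid cotton close to one of the ancestral genomes of upland cotton, of which 21 had 1 probe set, 6 had 2 and 1 had 3. The list was chosen by the measured difference between damaged and undamaged leaves on these same arrays. Their values in that comparison are therefore a description and carry no test.

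In plants, many stress-related C2H2 proteins also carry an EAR motif and repress their targets. The best known of these in Arabidopsis is STZ (ZAT10), named for the salt tolerance it conferred and induced there by salt, cold, wounding and strong light. Other members of the plant family act in trichome, flower and root development, so that a member's family name says nothing about whether it answers stress. For 12 of the 36 probe sets a protein name was found in the part of the study's gene table that was at hand. Of those 12, 4 were named salt tolerance zinc finger. No nucleotide or protein sequence was at hand for any member, and none is shown.

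There were 8 groups of 3 arrays: undamaged control leaves and CBW-damaged leaves at 6, 12, 24 and 48 h after the onset of continuous feeding. Each sample was whole leaf tissue pooled from 3 plants that were enclosed in bags with or without larvae, and the labels call the 3 samples of a group biological replicates. Both treatments shared the cultivar, chamber and light cycle, and the hour of day of each harvest was not given. The array medians of the deposited intensities lay between 358 and 399. Where a probe set lacked a value at a time, it lacked it for all 6 arrays there, and 30 members were measured at all 4 times, 3 at 3 times, 1 at 2 times and 2 at 1 time. Intensity is a brightness with no count behind it, so a value is compared only with the same probe set on other arrays. In whole leaves, fewer cells of a type and less RNA per cell cannot be told apart. Of the leaf markers searched, 1 chlorophyll a-b binding probe set was found by name and had values on all 24 arrays.

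The 36 probe sets included members called higher and members called lower in damaged leaves at each time. At 6 h, 12 of 34 measured members were called higher and 11 lower, where called means past a Benjamini-Hochberg adjusted p of 0.05 in a limma fit of all probe sets. Among all probe sets 26.1% were called higher and 36.5% lower at 6 h, so the comparison moved much of the transcriptome. At 12 h the members counted 13 higher and 9 lower of 34, beside 19.9% and 24.7% of all probe sets. At 24 h they counted 20 higher and 10 lower of 34, beside 20% and 29.3%. At 48 h they counted 19 higher and 7 lower of 31, beside 22.4% and 22.6%. Since the list was drawn from this comparison, nothing is read from these shares. The other listed transcription factors, drawn in the same way, had 41.5%, 37.4%, 40.5% and 46.2% called higher at the 4 times.

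The median log2 difference of the members, CBW minus control, was 0.41, 0.36, 0.84 and 0.90 in order of time. Over all probe sets the medians were -0.13, -0.04, -0.09 and 0.00, and over the other listed transcription factors 0.10, 0.16, 0.07 and 0.35. Individual members reached from -3.74 to 5.06. Over the 4 times, 20 members were called only higher, 14 only lower and 2 in both directions, as were 32.8%, 42.9% and 6.13% of all probe sets. At all 4 times 6 were called higher and 4 lower, as were 8.01% and 11.2% of the probe sets with values at each time. In the size of the response, 12 members of 11 genes were called and at least 4-fold higher at 1 time or more (the raised probe sets below), 1 was at least 4-fold lower (at 6 h and 24 h, beside 2.85% and 3.2% of all probe sets), and 23 stayed under 4-fold. The numbers at least 4-fold higher were 6, 6, 11 and 11 at the 4 times (17.6%, 17.6%, 32.4% and 35.5% of measured members). The shares were 5.5%, 3.76%, 4.24% and 4.43% of all probe sets and 19.1%, 12.1%, 15.8% and 17.9% of the other listed transcription factors. The member just inside the 4-fold line was Gra.3014.1.S1_at, 2.19 at 12 h, and the one just outside was GhiAffx.46662.1.S1_at, 1.91 at 12 h, which was matched to the same gene. The smallest largest difference of any member was 0.61, for Ghi.8968.1.A1_s_at.

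**Figure D1:**
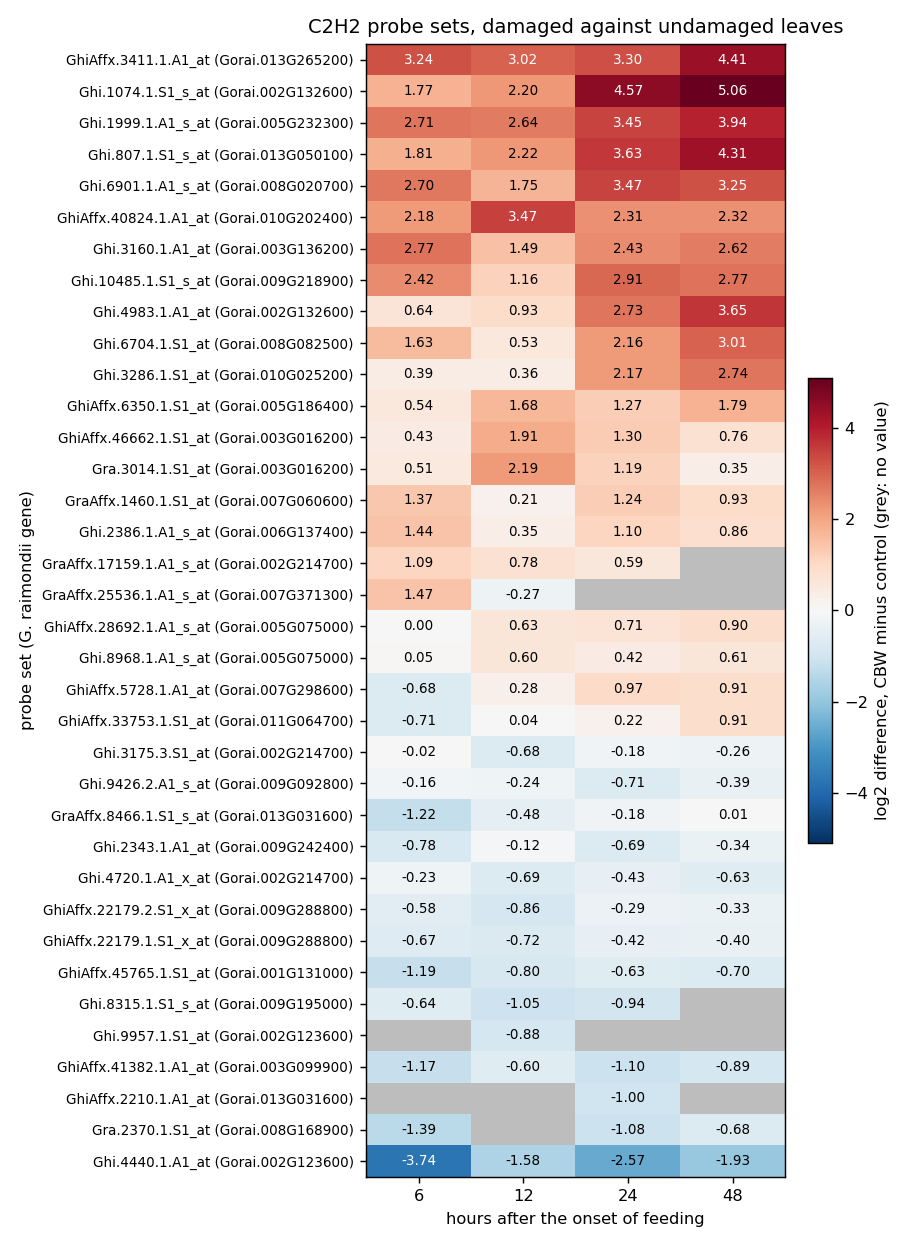
Log2 difference, CBW minus control, of the 36 C2H2 probe sets (rows, with the G. raimondii gene) at 6, 12, 24 and 48 h (columns), ordered by their mean. Each cell prints the difference of the means of 3 and 3 arrays, red is higher in damaged leaves, blue is lower and grey marks a time without values; the largest is 5.06 and the smallest -3.74.

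Among the salt tolerance zinc fingers, Gorai.002G132600.1 had the largest difference of all members. It had 2 probe sets with that name, Ghi.1074.1.S1_s_at and Ghi.4983.1.A1_at. In CBW-damaged leaves, Ghi.4983.1.A1_at read 6793, 4268 and 5306 at 6 h, then 4964, 4007 and 5073 at 12 h, then 5574, 6271 and 5965 at 24 h and lastly 5778, 4920 and 5691 at 48 h. Its control arrays read 3554, 5384 and 2112 at 6 h, then 5053, 1578 and 1828 at 12 h, then 1821, 1633 and 240 at 24 h and lastly 470, 251 and 687 at 48 h. The treatments overlapped at 6 and 12 h and lay apart at 24 and 48 h, with every damaged array between 4007 and 6793. Its log2 differences in order of time were 0.64, 0.93, 2.73 and 3.65, each with SE 0.584.

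Ghi.1074.1.S1_s_at followed the same course at a higher contrast. Its damaged arrays read 7514, 6931 and 6322 at 6 h, then 4439, 3531 and 5029 at 12 h, then 6996, 7081 and 6950 at 24 h and lastly 6803, 5646 and 6656 at 48 h. Its control arrays read 2231, 3429 and 1087 at 6 h, then 2957, 353 and 783 at 12 h, then 1007, 506 and 50.2 at 24 h and lastly 312, 71.1 and 312 at 48 h. Every damaged array stood above every control array of its time, and the log2 differences were 1.77, 2.20, 4.57 and 5.06 (SE 0.843), the last the largest of all members. A single array carried part of the 24 h value, which was 3.30 without control 24 h replicate 3 and 5.46 without control 24 h replicate 1. Over 24 arrays the log2 values of the pair correlated with Pearson's r = 0.971, with 0.967 over the 12 control arrays and 0.717 over the 12 CBW arrays, as a description of probe sets that may share transcripts.

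A probe set each stood for the other genes named salt tolerance zinc finger. Ghi.3286.1.S1_at (Gorai.010G025200.1), like Ghi.4983.1.A1_at, overlapped between treatments at 6 and 12 h, with log2 differences of 0.39 and 0.36 (SE 0.557), and lay apart at 24 h (2.17) and 48 h (2.74). At 24 h its damaged arrays read 2647, 3419 and 3326 and its control arrays 1491, 1191 and 187, and without control 24 h replicate 3 the difference was 1.22. Ghi.10485.1.S1_s_at (Gorai.009G218900.1) was apart at 6 h already, with damaged arrays at 4676, 3476 and 5142 and control arrays at 582, 1454 and 647. Its log2 differences were 2.42, 1.16, 2.91 and 2.77 (SE 0.557), and at 12 h its treatments overlapped. Ghi.10485.1.S1_s_at thus lay apart at 6, 24 and 48 h and Ghi.3286.1.S1_at at 24 and 48 h, and the difference between them was not tested.

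The 3 raised probe sets named zinc-finger DNA binding protein were higher at every time in the mean. For Ghi.807.1.S1_s_at (Gorai.013G050100.1) the damaged arrays ran from 4949 to 8789 with a median of 7767, and the control arrays from 151 to 3730 with a median of 904. Its treatments lay apart at each time, and the log2 differences were 1.81, 2.22, 3.63 and 4.31 (SE 0.664). At 48 h it read 8789, 7499 and 8527 in damaged leaves and 525, 230 and 594 in controls. Ghi.1999.1.A1_s_at (Gorai.005G232300.1) was also apart at each time, with log2 differences of 2.71, 2.64, 3.45 and 3.94 (SE 0.448). At 6 h its damaged arrays read 654, 646 and 748 and its control arrays 107, 145 and 72.6, and at 12 h they read 835, 520 and 777 against 276, 57.0 and 88.0. Ghi.6704.1.S1_at (Gorai.008G082500.1) overlapped at 12 h, where control replicate 1 read 2012 and the damaged arrays 1235, 893 and 1603, and its differences were 1.63, 0.53, 2.16 and 3.01 (SE 0.562). Its 12 h value was 1.16 without control 12 h replicate 1.

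GhiAffx.3411.1.A1_at (Gorai.013G265200.1), named C2H2 and C2HC zinc fingers superfamily protein, was higher in damaged leaves at each time. Its damaged arrays read 4583, 6592 and 5581 at 6 h, then 2611, 1685 and 3027 at 12 h, then 2732, 1898 and 1739 at 24 h and lastly 3202, 2533 and 2929 at 48 h. Its control arrays read 609, 800 and 412, then 436, 168 and 338, then 310, 201 and 151, then 104, 172 and 139 at the same times. No damaged array came down to any control array, and the log2 differences were 3.24, 3.02, 3.30 and 4.41 (SE 0.339). This was the raised probe set whose level in damaged leaves also declined, as the test of time below shows. Ghi.3160.1.A1_at (Gorai.003G136200.1), with the same name, read 213, 315 and 406 in damaged and 31.5, 74.8 and 36.5 in control leaves at 6 h, and its log2 differences were 2.77, 1.49, 2.43 and 2.62 (SE 0.363).

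The remaining named raised genes kept low intensities in undamaged leaves. Ghi.6901.1.A1_s_at (Gorai.008G020700.1), named as a zinc finger protein of G. hirsutum, read 259, 250 and 258 in damaged and 30.8, 23.4 and 17.1 in control leaves at 24 h. Its log2 differences were 2.70, 1.75, 3.47 and 3.25 (SE 0.375), with the treatments apart at each time. GhiAffx.40824.1.A1_at (Gorai.010G202400.1), a predicted protein, had its largest difference at 12 h, where it read 361, 225 and 313 in damaged and 66.1, 13.8 and 20.4 in control leaves. Its log2 differences were 2.18, 3.47, 2.31 and 2.32 (SE 0.589). Of the 24 values, 11 of Ghi.6901.1.A1_s_at and 13 of GhiAffx.40824.1.A1_at were below the 20th percentile of their array, where MAS5 values are least certain. With such values raised to that percentile the log2 differences were 0.53, 1.07, 1.10 and 1.33 for Ghi.6901.1.A1_s_at, 0.94, 1.35, 0.22 and 0.51 for GhiAffx.40824.1.A1_at, 1.41, 0.98, 0.90 and 0.92 for Ghi.3160.1.A1_at, and 2.44, 2.18, 2.35 and 2.15 for Ghi.1999.1.A1_s_at. Of the 12 raised probe sets, 8 were then still at least 4-fold higher at 1 time or more.

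**Figure D2:**
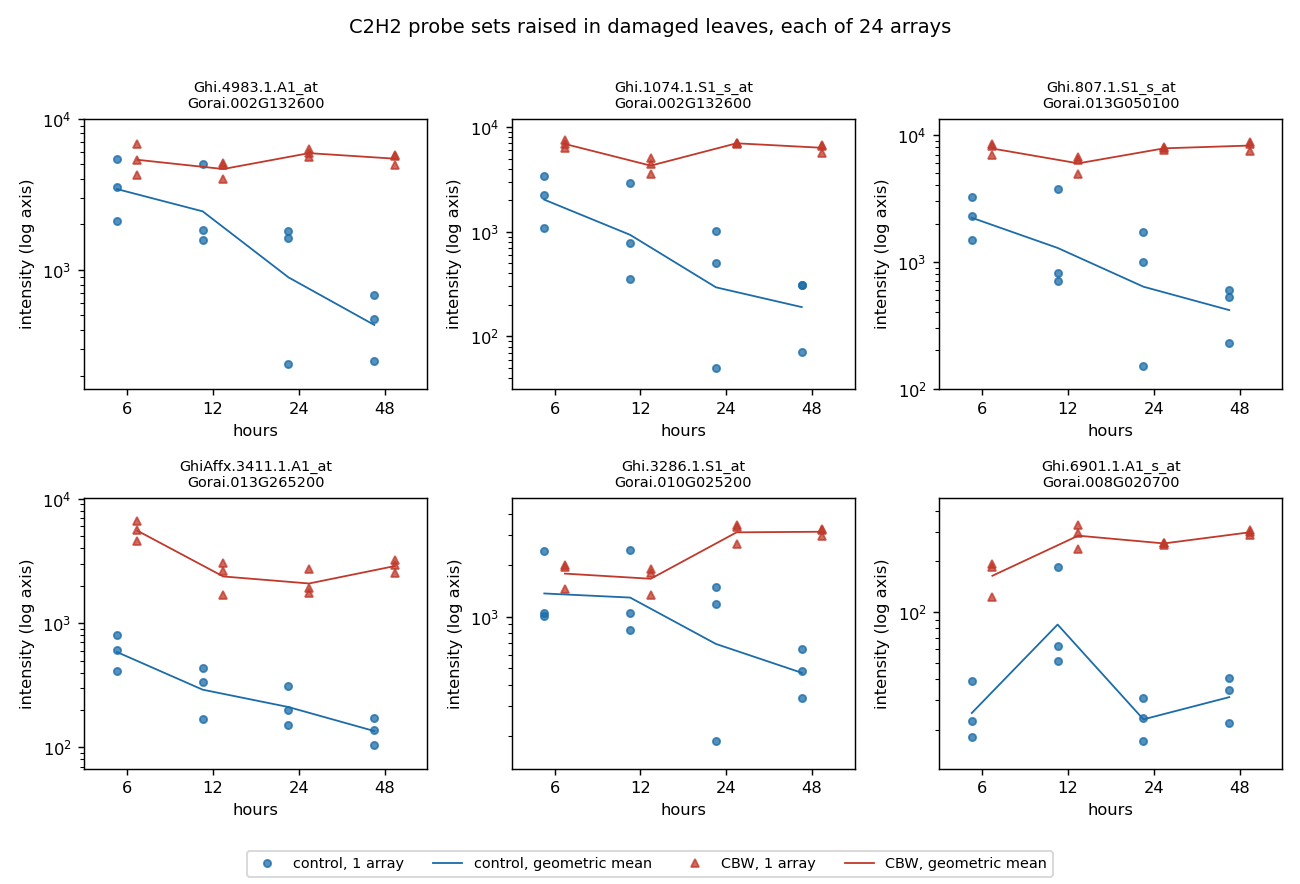
Deposited intensity (log axis) of 6 raised C2H2 probe sets against hours after the onset of feeding, with 1 point per array (3 per group) and lines through the geometric means. Control arrays are circles and CBW arrays triangles; for Ghi.4983.1.A1_at the damaged arrays stay between 4007 and 6793 while the control arrays reach from 5384 down to 240.

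The raised probe sets spread more widely over the undamaged than over the damaged arrays. They were picked by their difference on these same arrays, so this is a description and carries no test. The ratio of the highest to the lowest of the 12 damaged arrays ran from 1.70 to 6.14 among them, with a median of 2.48, and 9 of the 12 were above the median of all probe sets given below. Over the 12 control arrays the same ratio reached 68.3, with a median of 11.2. It was 1.78 in damaged and 24.7 in control leaves for Ghi.807.1.S1_s_at, 2.13 and 68.3 for Ghi.1074.1.S1_s_at, and 3.99 and 6.06 for GhiAffx.40824.1.A1_at. Some of the control ratios rest on dim values, as low as 10.9 for GhiAffx.40824.1.A1_at and 17.1 for Ghi.6901.1.A1_s_at. From 6 h to 48 h, 6 of the 12 fell in undamaged leaves and the other 6 did not pass the test, with log2 differences between -0.99 and 0.31. The ratio was smaller in damaged than in control leaves in 11 of the 12 raised probe sets, in 8 of the other 18 members with values at all times, and in 61.6% of all 13341 such probe sets, where its median was 1.96 in damaged and 2.17 in control leaves. The raised exception was Gra.3014.1.S1_at, with a ratio of 6.14 in damaged leaves and a far smaller one in control leaves.

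Change over time within a treatment was not what the list was drawn from and was tested, although the same arrays enter both comparisons. The comparison of 48 h with 6 h was added after the values had been seen. In undamaged leaves, 10 of 31 members fell from 6 h to 48 h and 1 rose, beside 17.9% and 13.4% of all probe sets. Among the other listed transcription factors 21.4% fell and 13.7% rose. Of the 10, 4 fell at least 4-fold, as did 0.535% of all probe sets and 1.99% of those other factors. Low control values at 48 h also enlarge the difference for which probe sets were listed, so these falls are not independent of the choice. The count of 10 was 5 without control 48 h replicate 2 and 6 without control 6 h replicate 2, and the single rise was lost without control 6 h replicate 3 and joined by another without CBW 6 h replicate 3 or control 48 h replicate 2. Ghi.1074.1.S1_s_at fell by 3.41 on the log2 scale (SE 0.843, limma adjusted p = 0.00553) and Ghi.4983.1.A1_at fell by 2.99 (SE 0.584, limma adjusted p = 0.00101). Ghi.807.1.S1_s_at fell by 2.42 (limma adjusted p = 0.0106) and GhiAffx.3411.1.A1_at fell by 2.11 (limma adjusted p = 0.000184). These 4 probe sets of 3 genes were those that fell at least 4-fold.

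Ghi.1999.1.A1_s_at fell by 1.60 (limma adjusted p = 0.0121) and Ghi.3286.1.S1_at fell by 1.54 (limma adjusted p = 0.0422). Past the threshold outside the raised group were GhiAffx.5728.1.A1_at (log2 difference -0.95, limma adjusted p = 0.0044), GraAffx.1460.1.S1_at (-0.81, 0.000648), GhiAffx.6350.1.S1_at (-0.70, 0.0299) and GhiAffx.28692.1.A1_s_at (-0.59, 0.0123). The member that rose was Ghi.4720.1.A1_x_at, by 0.40 (limma adjusted p = 0.00963). With any 1 of the 24 arrays left out, Ghi.4983.1.A1_at kept an adjusted p of 0.00774 or less and Ghi.1074.1.S1_s_at of 0.0378 or less, while Ghi.3286.1.S1_at reached 0.182 without control 6 h replicate 2. Ghi.807.1.S1_s_at reached 0.0574 and Ghi.1999.1.A1_s_at 0.0598 without control 48 h replicate 2. Of the 24 values of Ghi.1999.1.A1_s_at, 10 were below the 20th percentile of their array, and with low values raised to it the limma adjusted p was 0.827 for this probe set, 0.762 for GraAffx.1460.1.S1_at and 0.765 for GhiAffx.6350.1.S1_at.

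In CBW-damaged leaves, 9 of 31 members rose from 6 h to 48 h and 3 fell, beside 26.6% and 17.6% of all probe sets. None of the 4 probe sets that fell most in undamaged leaves changed as much here: the differences were -0.12 for Ghi.1074.1.S1_s_at, 0.02 for Ghi.4983.1.A1_at, 0.08 for Ghi.807.1.S1_s_at and -0.94 for GhiAffx.3411.1.A1_at, and only the last passed the threshold (limma adjusted p = 0.031). The difference between the treatments in this change, which is the response at 48 h minus the response at 6 h and so belongs to the comparison the list was drawn from, was 3.29 (SE 1.19) for Ghi.1074.1.S1_s_at, 3.01 (SE 0.826) for Ghi.4983.1.A1_at, 2.50 (SE 0.939) for Ghi.807.1.S1_s_at and 2.35 (SE 0.787) for Ghi.3286.1.S1_at. For Ghi.3160.1.A1_at it was -0.15 (SE 0.513) and for GhiAffx.40824.1.A1_at 0.14 (SE 0.832). All 9 rises in damaged leaves belonged to members called lower there at 6 h, a comparison that uses the same 6 h CBW arrays. Ghi.4440.1.A1_at rose by 2.00 (limma adjusted p = 0.000214), GraAffx.8466.1.S1_s_at by 1.26 (0.000153) and GhiAffx.33753.1.S1_at by 1.17 (0.002).

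**Figure D3:**
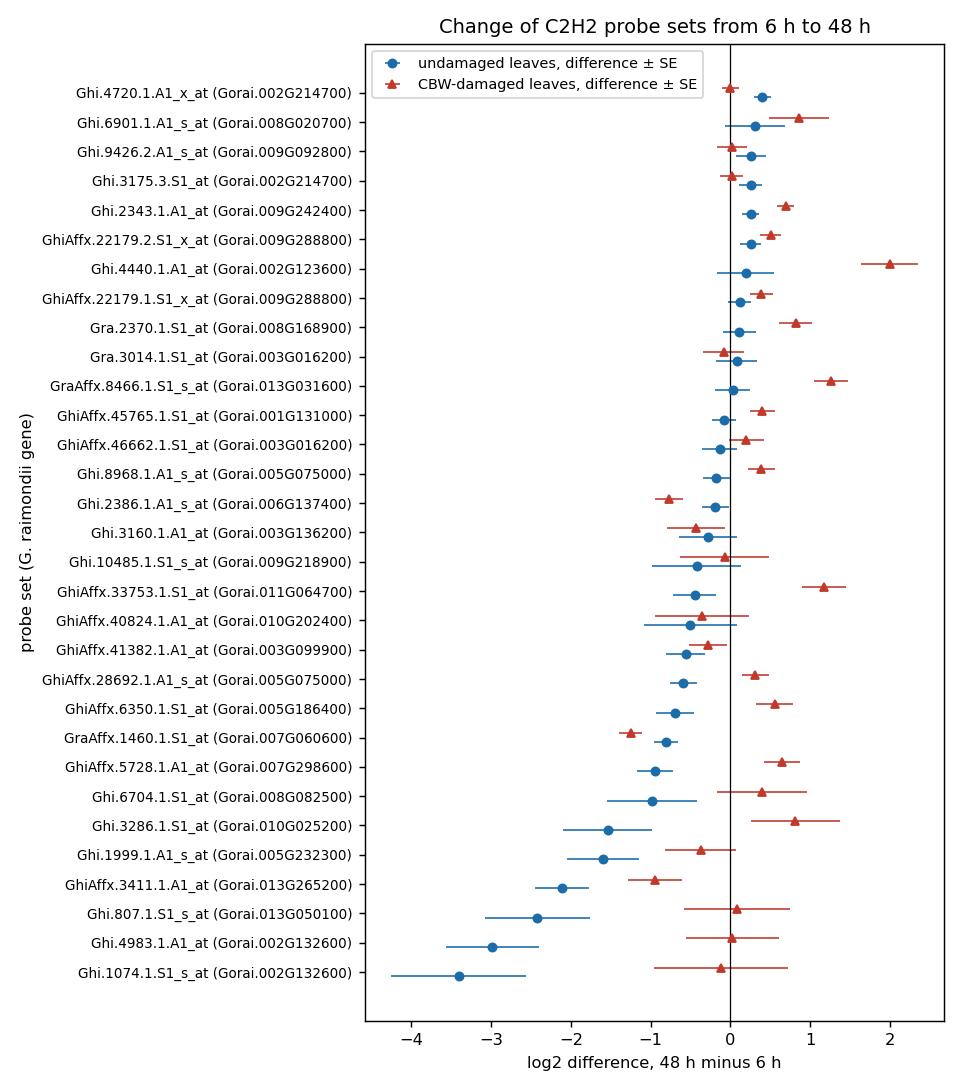
Log2 difference, 48 h minus 6 h, of the 31 C2H2 probe sets with values at both times, in undamaged leaves (circles) and in CBW-damaged leaves (triangles), with bars of 1 SE from the fit of all 24 arrays. The lowest circles are Ghi.1074.1.S1_s_at at -3.41 and Ghi.4983.1.A1_at at -2.99, whose triangles stand at -0.12 and 0.02.

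The undamaged leaves also differed among themselves, and the raised probe sets moved together in them. Control 6 h replicate 2 gave the highest of the 3 values in 12 of 12 raised probe sets, and in 31.5% of all probe sets. Control 12 h replicate 1 gave the highest in 12 of 12 (37.8% of all), control 24 h replicate 3 the lowest in 11 of 12 (33.9%), and control 48 h replicate 2 the lowest in 10 of 12 (47.8%). All 4 of these held at once in 9 of the 12 raised probe sets, in 2 of the other 18 members and in 7.98% of all 13341 probe sets with values at all times. The median deviation of the raised probe sets from their group mean was 1.09 on the log2 scale in control 12 h replicate 1 and -1.21 in control 24 h replicate 3, where the medians over all probe sets were -0.01 and 0.005. These arrays were picked out after the values had been seen. The 12 probe sets share libraries, and what set these samples apart was not tested.

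These arrays weighed on single values besides those given above. At 12 h the log2 difference between treatments was larger without control replicate 1 for Ghi.1074.1.S1_s_at (3.03), Ghi.807.1.S1_s_at (2.98), Ghi.1999.1.A1_s_at (3.30) and GhiAffx.40824.1.A1_at (4.13), and for Ghi.1074.1.S1_s_at it was smaller without control replicate 2 (1.49). At 24 h it was smaller without control replicate 3 for Ghi.807.1.S1_s_at (2.59), Ghi.4983.1.A1_at (1.78), Ghi.10485.1.S1_s_at (2.21) and GhiAffx.40824.1.A1_at (1.68), and for Ghi.807.1.S1_s_at it was larger without control replicate 1 (4.34). At 48 h it was smaller without control replicate 2 for Ghi.1074.1.S1_s_at (4.35) and Ghi.10485.1.S1_s_at (2.08), and the fall of Ghi.1074.1.S1_s_at in undamaged leaves was then 2.70 (limma adjusted p = 0.0378). None of these turned a direction.

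Damaged leaves were more even in the raised probe sets, as a description of probe sets picked on these same arrays. Their median deviations lay between -0.31 and 0.16, the lowest in CBW 12 h replicate 2, which gave the lowest value in 12 of 12 raised probe sets and in 25.5% of all probe sets. The spread of the control arrays is carried into the SE of every raised probe set, because the fit pools the 8 groups of a probe set into 1 variance. With 3 arrays against 3, an exact permutation test of a single probe set could not go below p = 0.1.

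**Figure D4:**
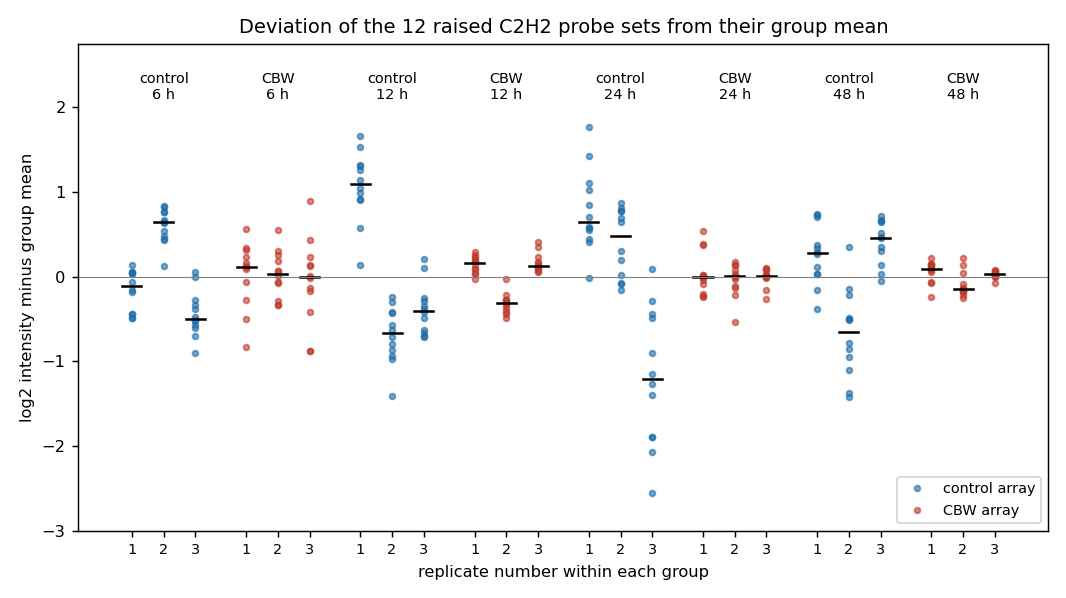
Log2 intensity of each of the 12 raised C2H2 probe sets on each array minus its mean over the 3 arrays of the group, with a point per probe set and a black bar at the median of the 12. Control arrays spread more widely than CBW arrays, with medians of 1.09 in control 12 h replicate 1 and -1.21 in control 24 h replicate 3.

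Gorai.003G016200.1, with 1 raised probe set and 1 that stayed under 4-fold, had its largest response at 12 h. Its probe set Gra.3014.1.S1_at read 282, 282 and 301 in damaged and 69.5, 53.4 and 68.0 in control leaves at 12 h, and its log2 differences were 0.51, 2.19, 1.19 and 0.35 (SE 0.255). Of the 24 values of this probe set, 16 were below the 20th percentile of their array. With these raised to it the differences were 0.04, 1.32, 0.16 and 0, so that it was no longer 4-fold higher. GhiAffx.46662.1.S1_at of this gene read 1044, 1113 and 1154 in damaged and 286, 274 and 325 in control leaves at 12 h, with log2 differences of 0.43, 1.91, 1.30 and 0.76 (SE 0.219). Both lay apart between treatments at 12, 24 and 48 h and overlapped at 6 h. Their log2 values correlated with r = 0.965 over 24 arrays and 0.967 over the 12 CBW arrays. In undamaged leaves neither changed past the threshold at any step, with differences between -0.33 and 0.19.

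GhiAffx.6350.1.S1_at (Gorai.005G186400.1) was called higher from 12 h on, with log2 differences of 0.54, 1.68, 1.27 and 1.79 (SE 0.233), but 16 of its 24 values were below the 20th percentile of their array, and with these raised to it the differences were -0.03, 0.20, 0.05 and 0.29. Ghi.2386.1.A1_s_at (Gorai.006G137400.1) and GraAffx.1460.1.S1_at (Gorai.007G060600.1) had the opposite course, largest at 6 h and smallest at 12 h. The first had log2 differences of 1.44, 0.35, 1.10 and 0.86 (SE 0.174), and the second 1.37, 0.21, 1.24 and 0.93 (SE 0.149). GraAffx.25536.1.A1_s_at (Gorai.007G371300.1) had values at 6 h, with a difference of 1.47 (SE 0.269), and at 12 h, with -0.27. In control leaves the last 2 rose from 6 h to 12 h, GraAffx.1460.1.S1_at by 0.47 (limma adjusted p = 0.0159) and GraAffx.25536.1.A1_s_at by 0.95 (0.0152). Of the 24 values of GraAffx.1460.1.S1_at, 11 were below the 20th percentile of their array, as were 9 of the 12 of GraAffx.25536.1.A1_s_at. With these raised to it the first differed between treatments by 1.2, 0.21, 0.29 and 0, and the second by 0.25 and -0.12. Neither rise in control leaves then passed (limma adjusted p = 0.0506 and 0.518).

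Lower members were fewer and, with 1 exception, within 4-fold. The exception was Ghi.4440.1.A1_at (Gorai.002G123600.1). Its damaged arrays read 36.8, 13.1 and 12.5 at 6 h, then 99.7, 205 and 145 at 12 h, then 37.3, 52.8 and 49.8 at 24 h and lastly 69.8, 68.8 and 79.8 at 48 h. Its control arrays read 296, 253 and 192 at 6 h, then 266, 503 and 590 at 12 h, then 227, 268 and 336 at 24 h and lastly 281, 312 and 243 at 48 h. The treatments lay apart at each time, with log2 differences of -3.74, -1.58, -2.57 and -1.93 (SE 0.355). Of its 24 values, 10 were below the 20th percentile of their array, and with such values raised to that percentile the log2 differences were -1.17, -1.52, -1.32 and -1.23. All its damaged arrays at 6 h and 48 h were below the percentile. Its increase in damaged leaves thus could not be seen under the floor (0.13 from 6 h to 48 h, limma adjusted p = 0.677).

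After it in size came Gra.2370.1.S1_at, then GraAffx.8466.1.S1_s_at (described with its gene below), GhiAffx.45765.1.S1_at and GhiAffx.41382.1.A1_at. Gra.2370.1.S1_at (Gorai.008G168900.1) read 54.2, 31.6 and 31.4 in damaged and 108, 98.0 and 91.1 in control leaves at 6 h, a log2 difference of -1.39 (SE 0.207), and -1.08 and -0.68 at 24 and 48 h. With low values raised to the 20th percentile these were -0.07, -0.25 and 0.00. GhiAffx.45765.1.S1_at (Gorai.001G131000.1) ran from 474 to 942 on the damaged arrays and from 1040 to 1649 on the control arrays, so that no array of the first reached the second at any time. Its log2 differences were -1.19, -0.80, -0.63 and -0.70 (SE 0.152). Ghi.8315.1.S1_s_at (Gorai.009G195000.1) read 64.7, 85.0 and 64.6 in damaged and 164, 150 and 129 in control leaves at 12 h, with log2 differences of -0.64, -1.05 and -0.94 (SE 0.21) at the 3 times it was measured. With low values raised to the 20th percentile its differences were -0.07, -0.37 and -0.13. Ghi.2343.1.A1_at (Gorai.009G242400.1), at -0.78, -0.12, -0.69 and -0.34 (SE 0.108), and Ghi.9426.2.A1_s_at (Gorai.009G092800.1), at -0.16, -0.24, -0.71 and -0.39 (SE 0.19), were the smallest single-probe-set members on this side.

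Where several probe sets were matched to 1 gene, their deposited values did not always run alike. Gorai.002G214700.1 had 3. Ghi.4720.1.A1_x_at read 253, 299 and 262 in damaged and 405, 424 and 490 in control leaves at 12 h, and its log2 differences were -0.23, -0.69, -0.43 and -0.63 (SE 0.107). Ghi.3175.3.S1_at read 128, 138 and 113 in damaged and 210, 211 and 184 in control leaves at 12 h, with differences of -0.02, -0.68, -0.18 and -0.26 (SE 0.143). GraAffx.17159.1.A1_s_at was on the other side, at 120, 150 and 122 in damaged and 89.9, 54.9 and 89.5 in control leaves at 12 h, with differences of 1.09, 0.78 and 0.59 (SE 0.179) at 6, 12 and 24 h. On 12 of its 18 arrays the value was below the 20th percentile. With such values raised to that percentile its differences were 0.03, 0.18 and -0.12. Most of its increase lay below that percentile, where the floor cannot show it. Its r with Ghi.4720.1.A1_x_at was -0.428 over 18 arrays, although it was 0.758 over the control arrays and 0.481 over the CBW arrays taken alone. Probe sets ending in _s_at or _x_at can match several transcripts, and upland cotton carries more than 1 ancestral copy of most genes, so that the 3 cannot be assigned to copies here.

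For Gorai.002G123600.1, Ghi.9957.1.S1_at had values at 12 h alone, reading 36.4, 45.1 and 38.3 in damaged and 68.8, 77.6 and 73.7 in control leaves (log2 difference -0.88, SE 0.13), the direction of Ghi.4440.1.A1_at. For Gorai.013G031600.1, GhiAffx.2210.1.A1_at had values at 24 h alone, reading 29.4, 34.4 and 31.4 in damaged and 54.9, 65.2 and 71.2 in control leaves (-1.0, SE 0.141). GraAffx.8466.1.S1_s_at of that gene was lower at 6 h, with 383, 323 and 302 in damaged and 742, 817 and 782 in control leaves, and its differences were -1.22, -0.48, -0.18 and 0.01 (SE 0.216). All 6 values of GhiAffx.2210.1.A1_at were below the 20th percentile of their array. With these raised to it, its 24 h difference was -0.13. That is a difference between the array percentiles, so the floor cannot show whether the pair differed in size. All 6 values of Ghi.9957.1.S1_at were below it too, so that its difference was then also one between percentiles (-0.02). Both GhiAffx.22179.1.S1_x_at (-0.67, -0.72, -0.42 and -0.40, SE 0.144) and GhiAffx.22179.2.S1_x_at (-0.58, -0.86, -0.29 and -0.33, SE 0.135) of Gorai.009G288800.1 had every damaged array below every control array of its time, with r = 0.974 over 24 arrays. At 12 h the first read 258, 258 and 221 in damaged and 358, 415 and 444 in control leaves, and the second 235, 241 and 221 against 381, 448 and 434.

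Both probe sets of Gorai.005G075000.1 started level and were higher from 12 h on. GhiAffx.28692.1.A1_s_at read 3339, 3866 and 3616 in damaged and 2391, 2088 and 2497 in control leaves at 12 h, and its log2 differences were 0.00, 0.63, 0.71 and 0.90 (SE 0.166). Ghi.8968.1.A1_s_at read 480, 528 and 567 in damaged and 373, 288 and 381 in control leaves at 12 h, and its differences were 0.05, 0.60, 0.42 and 0.61 (SE 0.167). Their r was 0.859 over 24 arrays.

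GhiAffx.5728.1.A1_at (Gorai.007G298600.1) was the member whose arrays lay apart in opposite directions at different times. At 6 h it read 410, 283 and 298 in damaged and 536, 590 and 452 in control leaves, a log2 difference of -0.68 (SE 0.227). At 24 h it read 477, 618 and 557 in damaged and 230, 330 and 290 in control leaves (0.97), and at 48 h 378, 687 and 509 against 251, 288 and 274 (0.91). At 12 h the treatments overlapped (0.28). Undamaged leaves fell by 0.95 from 6 h to 48 h and damaged leaves rose by 0.65 (limma adjusted p = 0.0044 and 0.0275). GhiAffx.33753.1.S1_at (Gorai.011G064700.1) was also called in both directions, at -0.71 at 6 h with overlapping arrays and 0.91 at 48 h (SE 0.271).

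Undamaged leaves alone gave the planned test of time in 3 steps. From 6 h to 12 h, 9 of 33 members rose and 5 fell, beside 19.9% and 23.2% of all probe sets. The falls numbered 2 without control 6 h replicate 2 and 3 without control 6 h replicate 1 or control 12 h replicate 2. From 12 h to 24 h, 3 of 32 rose and 6 fell, beside 20.2% and 18.4%, and the falls numbered 3 without control 24 h replicate 3 and 10 without control 24 h replicate 1. From 24 h to 48 h none of 31 passed in the limma fit, beside 0.199% and 0.171%, and 0 of 31 had an unadjusted p under 0.05, where 15.7% of all probe sets did. Without control 24 h replicate 3, 1 fall passed. In this step 2 of 31 had their 48 h arrays all below their 24 h arrays, where 12.5% of all probe sets did. In these steps plant age, time in the bag and hour of day cannot be told apart.

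The largest of these changes belonged to GhiAffx.41382.1.A1_at (Gorai.003G099900.1), which dipped at 12 h. Its control arrays read 1279, 1119 and 1255 at 6 h, then 219, 348 and 413 at 12 h, then 914, 1126 and 1139 at 24 h and lastly 762, 912 and 805 at 48 h. It fell by 1.94 from 6 h to 12 h (SE 0.242, limma adjusted p = 2.92e-06) and rose by 1.74 from 12 h to 24 h (1.59e-05). Its damaged arrays dipped too, from 702, 444 and 510 at 6 h to 194, 251 and 184 at 12 h and then 334, 537 and 669 at 24 h and 444, 518 and 385 at 48 h. Its CBW minus control differences were -1.17, -0.60, -1.10 and -0.89 (SE 0.242). Ghi.2343.1.A1_at had a smaller dip in undamaged leaves, falling by 0.47 (limma adjusted p = 0.00173) and rising by 0.84 (6.73e-06).

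The opposite course, a peak at 12 h, was largest in Ghi.6901.1.A1_s_at, which rose by 1.74 (SE 0.375, limma adjusted p = 0.000986) and fell by 1.87 (0.000641). Next was Ghi.3160.1.A1_at, which rose by 1.10 (SE 0.363, 0.0198) and fell by 1.19 (0.0146). In control leaves Ghi.6901.1.A1_s_at read 22.6, 39.3 and 18.1 at 6 h and 186, 62.9 and 51.3 at 12 h, and Ghi.3160.1.A1_at read 31.5, 74.8 and 36.5 at 6 h and 188, 58.0 and 77.6 at 12 h. Control 12 h replicate 1 was the highest array of both. Without it the changes of Ghi.3160.1.A1_at no longer passed (limma adjusted p = 0.146 and 0.109), whereas those of Ghi.6901.1.A1_s_at passed with any 1 array left out, at 0.00817 and 0.00532 or less. With low values raised to the 20th percentile neither gene passed at either step (limma adjusted p of 0.266 or more). Smaller peaks passed at both steps in Ghi.8315.1.S1_s_at (0.99, limma adjusted p = 0.00143, and -0.83, 0.00603), Ghi.3175.3.S1_at (0.59, 0.00243, and -0.48, 0.0126) and GraAffx.1460.1.S1_at (0.47, 0.0159, and -1.18, 5.27e-06). Those of Ghi.8315.1.S1_s_at passed with any 1 array left out and under each alternative that kept it. Under the floor those of GraAffx.1460.1.S1_at did not pass (0.0506 and 0.137). GhiAffx.3411.1.A1_at fell by 1.01 from 6 h to 12 h (SE 0.339, limma adjusted p = 0.0224).

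**Figure D5:**
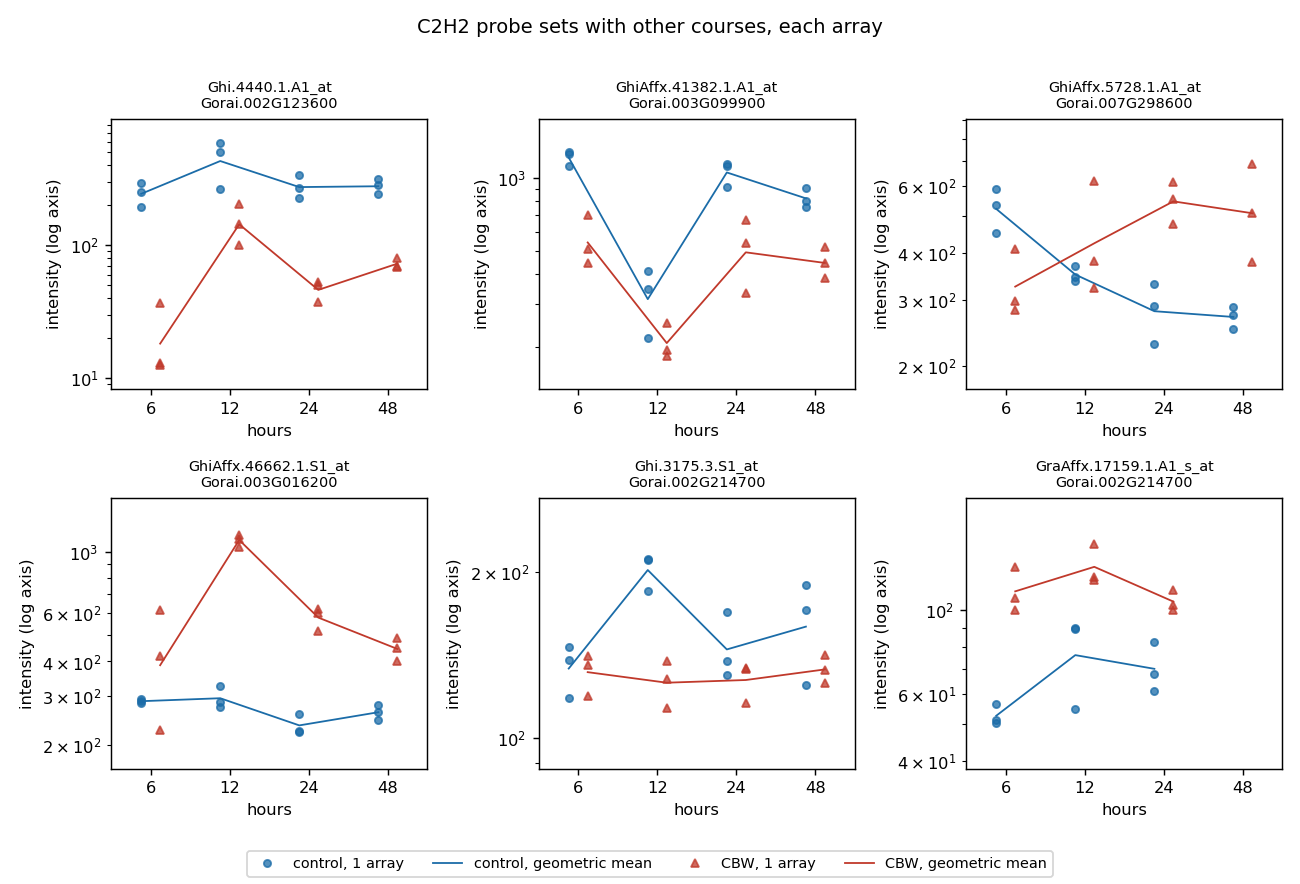
Deposited intensity (log axis) of 6 C2H2 probe sets against hours after the onset of feeding, with 1 point per array and lines through geometric means; circles are control and triangles CBW arrays. GhiAffx.41382.1.A1_at dips at 12 h in both treatments, GhiAffx.5728.1.A1_at crosses from -0.68 to 0.91 on the log2 scale, and Ghi.3175.3.S1_at and GraAffx.17159.1.A1_s_at of Gorai.002G214700.1 lie on opposite sides.

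In Arabidopsis the repressor C2H2 proteins sit downstream of stress-activated MAP kinases and of the oxidative burst, and lists of such genes were searched by protein name. The names at hand came mostly from the part of the study's gene table with the largest 48 h increases, so direction in these lists is not independent. That table was itself drawn from the comparison of damaged with undamaged leaves. The values in these lists are therefore a description and carry no test. Of the MAP kinases, 5 probe sets named mitogen-activated protein kinase 3 were found. All 5 were called higher at 6 h, 2 at 12 h, and 5 at each of 24 and 48 h. Among all probe sets 26.1%, 19.9%, 20% and 22.4% were called higher at these times. The largest difference was that of Ghi.6088.1.S1_s_at at 24 h, with damaged arrays from 631 to 683 and control arrays from 30.9 to 58.9 (log2 difference 4.07, SE 0.453). At 12 h its control arrays ran from 301 to 805. The respiratory burst oxidase D probe set, for an enzyme that makes superoxide at the cell surface, was higher at all 4 times, by 3.92, 2.56, 3.75 and 3.09 on the log2 scale (SE 0.291), and at 6 h read 2639 to 3011 in damaged and 129 to 262 in control leaves. No TOPLESS co-repressor, ascorbate peroxidase, catalase, superoxide dismutase or further C2H2 probe set was found by name. The chlorophyll a-b binding probe set differed by 0.60, -0.19, 2.45 and 1.95 (SE 0.224), ran from 78.3 to 900 on the control arrays and from 408 to 683 on the CBW arrays, and its part in the results was not tested. It was the only leaf marker found, among names weighted to 48 h increases, and does not stand for photosynthesis genes at large. The study reports that nearly all photosynthesis genes responding to feeding were down-regulated.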

How the data were processed

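Total RNA of whole leaves was hybridized to the 1-colour Affymetrix Cotton GeneChip, 3 arrays in each of 8 groups. The deposited values are intensities made by the authors with MAS5, per the labels, whose version and scaling are not given in the sources used here, nor is the rule by which values are missing. They are linear, and no depth or counting error applies. The fold changes and q-values of the authors' own comparisons, in the study's tables, were not used.

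Intensities were put on the log2 scale with no pseudocount or filter and fitted with limma 3.58.1 in R 4.3.3 (lmFit and eBayes, a mean for each of the 8 groups over all 24 arrays). P-values were adjusted by Benjamini-Hochberg over all probe sets tested in a comparison, with a threshold of 0.05, and SEs are the moderated ones of this fit. The scripts were tested on simulated data. Groups came from the sample titles. The alternatives were quantile normalization, median centring, a floor at the 20th percentile of each array, a minimum mean intensity of 100, probe sets with values on all arrays, the replicate number as a block, only the arrays compared, an intensity trend in eBayes (added after seeing the data), and leaving out each array.

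Members were identified by the family column of the study's transcription factor list, and protein names by its gene table, of which 975 named rows were at hand. The members and lists were chosen with earlier results of these data known. Array values are given at each time for the 3 largest rises and 2 largest falls among members whose treatments did not overlap, for members apart in opposite directions, for probe sets of a shared gene, and in undamaged leaves for the 2 largest rises and falls past the threshold at each step. Those of Ghi.3286.1.S1_at, Ghi.10485.1.S1_s_at and Ghi.6704.1.S1_at were added after values were seen. The lists searched by protein name were TOPLESS co-repressors, MAP kinases, ascorbate peroxidases, catalases, superoxide dismutases, respiratory burst oxidases, further C2H2 proteins and leaf markers.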

Additional observations from a re-analysis of the deposited data

Results flagged for a closer look

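GhiAffx.5728.1.A1_at (Gorai.007G298600.1) stood out because its arrays lay wholly apart between treatments in opposite directions at different times. All 3 damaged arrays were below all 3 control arrays at 6 h (log2 difference -0.68) and above them at 24 h (0.97) and at 48 h (0.91). The difference between these times was not tested, since it belongs to the comparison from which the members were chosen. Groups of 3 arrays are too small for a test of single outlying arrays.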

How the results depend on the processing

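In the comparison of damaged with undamaged leaves, each count of members stayed within 1.5 times its value under every alternative run, as did the MAP kinase and respiratory burst oxidase counts. The sizes were less even. Raising intensities below the 20th percentile of an array to that percentile moved 34 of 133 member differences, in 14 members, by over 1.5-fold, and 8 of the 12 raised probe sets stayed at least 4-fold higher. Of the 46 member changes over time past the threshold, 14 no longer passed and 3 turned in sign under this floor, and 17 no longer passed with only the arrays compared. The floor gave 5 rises and 3 falls from 6 h to 12 h in undamaged leaves (9 and 5 otherwise), 3 falls from 12 h to 24 h (6) and 6 falls from 6 h to 48 h (10). It also turned the sign of GraAffx.17159.1.A1_s_at at 24 h (-0.118), of GraAffx.1460.1.S1_at at 48 h (-2e-04) and in undamaged leaves from 6 h to 48 h (0.0536), and of GhiAffx.6350.1.S1_at in undamaged leaves from 6 h to 12 h (0.0216) and to 48 h (0.0608). These are probe sets with many values under that floor, and a difference between values all raised to it is that of the array percentiles. The control values of GhiAffx.6350.1.S1_at, at most 84.2, were all under it. Such a turn in sign therefore does not show an opposite change. With only the arrays compared there were 4 rises from 6 h to 12 h, 3 falls from 12 h to 24 h and 0 rises from 6 h to 48 h (1 otherwise), with fewer arrays to estimate the spread. Median centring gave 2 rises from 6 h to 48 h, and the cause was not tested. The replicate block moved no count by over 1.5 times and 3 of the 46 member changes over time no longer passed under it. Same-numbered arrays of the treatments had deviations correlated from -0.187 to 0.518 over 12 pairs, 6 of them over 0.1, among which were all 3 pairs at 12 h and none at 48 h. An array correlated best with its own number in 12 of 24 cases (6 of 6 at 24 h, 0 of 6 at 48 h), a hint from the data and not from the design. The labels name no shared source and not every pair was over 0.1, so the numbers were not used as pairs.

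Leaving out each array in turn gave 2 to 5 falls from 6 h to 12 h in undamaged leaves (2 without control 6 h replicate 2), 3 to 10 falls from 12 h to 24 h (3 without control 24 h replicate 3, 10 without control 24 h replicate 1), 0 to 1 falls from 24 h to 48 h, and 0 to 2 rises and 5 to 11 falls from 6 h to 48 h. Of the 46 member changes over time past the threshold, 24 passed with any 1 array left out and 20 under each other alternative. Signal limits the dim probe sets: 12 members had over 6 values below the 20th percentile, which lay between 106 and 121.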
